A study of Homo sapiens with 16 samples.

Results

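The genes described here are 10 chromatin regulators that are recurrently altered in germinal centre lymphoma or work in the same complexes: EZH2, EZH1, EED, SUZ12, KMT2D, KMT2C, KDM6A, ARID1A, SMARCA4 and TET2. They were chosen by name from 62714 genes in the deposited tables. No rule on their measured values was used, but earlier results of these data were known. All 10 had counts in each of the 16 libraries and passed the filter on low counts in each test. The libraries are bulk RNA-seq of ribosomal RNA depleted RNA from B-cell lymphoma lines of human origin, 4 established lines in all. Here a lentiviral vector carrying Cas9 and guides (4 per target) had been directed at CREBBP, a histone acetyltransferase gene often mutated in follicular lymphoma, or at AAVS, an integration site that serves as the control. The labels give the genotypes as CREBBP -/- and AAVS -/-. The targeted cells were kept as pools, so that edited and unedited cells are measured together, and the controls carry the same vector and Cas9. Each pool gave 1 library at baseline and 1 after culture for 4 h with 10 ng/ml of IL4, the cytokine that activates STAT6. The 4 groups, AAVS and CREBBP pools at baseline and with IL4, therefore hold 4 libraries each, 1 per line. SU-DHL4 is line 1, and DOHH2 is line 4. OCI-LY7 and SU-DHL10 are named in opposite order by the titles and by the cell line entries of the labels, and these lines are called line 2 and line 3.

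The genes fall into 4 enzymatic groups. EZH2 or its paralog EZH1 is the catalytic subunit of Polycomb repressive complex 2 (PRC2), which methylates lysine residues of histone H3 to repress genes, while SUZ12 is its scaffold and EED the subunit that binds the methyl mark. EZH2 is abundant in dividing germinal centre B cells, and EZH1 is typical of resting cells. KMT2D and KMT2C are the related methyltransferases that mark enhancers, and they share a complex with KDM6A (UTX), a demethylase that removes the PRC2 mark. ARID1A is a DNA-binding subunit, and SMARCA4 (BRG1) an ATPase, of the SWI/SNF nucleosome remodelling complexes. TET2 oxidizes methylated cytosine in DNA.

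Some properties of the libraries touch several results. Total counts ranged from 19649735 to 61981976 (median 44724334), and the lowest count of any of the 10 genes in a library was 329 (TET2). The targeted transcript did not separate the pools, with 187 to 278 CPM (counts per 1000000) for CREBBP in CREBBP baseline against 205 to 360 CPM in AAVS baseline (log2 fold change -0.11, adjusted p = 0.851, edgeR). With IL4 it was at 69.9 to 245 CPM against 190 to 379 CPM (log2 fold change -0.51, adjusted p = 0.218), so the transcript level gave no check of the editing. At the protein level, the authors reported loss of CREBBP in these pools by immunoblotting. The 3 non-coding transcripts RN7SK, RN7SL1 and RN7SL2 took 4.41% to 18.1% of the counts, with the highest share in CREBBP IL4 of line 2 and 13.3% in CREBBP baseline of line 3. The 4 AAVS IL4 libraries stood apart. They held 117 genes at 1 CPM or more that nowhere reached 0.5 CPM among the other 12 libraries, including IGHM, the heavy chain of IgM, at 138 to 1711 CPM in AAVS IL4 and at most 0.0696 CPM elsewhere. The 6 B-cell markers (range of their summed level 2613 to 5137 CPM) and the 6 germinal centre markers (652 to 1484 CPM) were detected in every group, as the label of B-cell lymphoma has it. Of 9 T-cell markers, 9 reached 1 CPM in AAVS IL4 (summed level 37.4 to 214 CPM) and 4 in the other libraries (2.18 to 38.2 CPM), where CD2 was at 0. The 7 myeloid markers summed to 5.09 to 21.5 CPM in AAVS IL4 and to 0.398 to 3.47 CPM elsewhere, and the 8 genes of B cells outside the germinal centre to 631 to 3772 CPM against 57.6 to 373 CPM. Every comparison that uses AAVS IL4 carries this difference, and its part in the results was not tested. AAVS IL4 of line 3 also had the lowest total count and correlated weakly with the other libraries of its line. For deviations from the group means, r was 0.14, -0.04 and -0.15 with AAVS baseline, CREBBP baseline and CREBBP IL4. Among lines 1, 3 and 4, 1 to 17 genes reached 10 CPM in one line while lying under 0.5 CPM in another line at the same condition (AAVS IL4 left out), whereas 149 to 235 genes separated line 2 from each of them.

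The promoters of 4 genes are shown because the comparisons below turn on them: EZH2 and EZH1, whose ratio was compared between pools, SUZ12, which holds matches to both a STAT6 and an E2F motif, and TET2, with the largest fitted fold changes between conditions. By GENCODE release 44 on GRCh38 the genes lie at chr7:148807257-148884321 (EZH2, minus strand), chr17:42700275-42745049 (EZH1, minus strand), chr17:31937007-32001038 (SUZ12, plus strand) and chr4:105145875-105279816 (TET2, plus strand), with 20, 21, 16 and 11 exons in the canonical transcript. Each sequence is the 250 bases before the transcript start in RefSeq on GRCh38.p14, on the strand of the gene. Capitals mark matches to 1 of 3 motifs searched on both strands: the STAT6 motif (TTC and GAA with any 4 bases between them), the E2F motif in the forms TTTCCCGC, TTTGGCGC, TTTCGCGC and TTTGCCGC, and the cyclic AMP response element TGACGTCA, which is bound by the partner that gave CREBBP its name.
EZH2 (chr7:148883486-148883735, minus strand): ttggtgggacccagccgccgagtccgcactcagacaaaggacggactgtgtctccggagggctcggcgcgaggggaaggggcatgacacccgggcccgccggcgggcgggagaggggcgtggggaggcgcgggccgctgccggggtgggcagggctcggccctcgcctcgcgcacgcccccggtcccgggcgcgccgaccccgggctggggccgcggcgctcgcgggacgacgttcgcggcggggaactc
EZH1 (chr17:42745041-42745290, minus strand): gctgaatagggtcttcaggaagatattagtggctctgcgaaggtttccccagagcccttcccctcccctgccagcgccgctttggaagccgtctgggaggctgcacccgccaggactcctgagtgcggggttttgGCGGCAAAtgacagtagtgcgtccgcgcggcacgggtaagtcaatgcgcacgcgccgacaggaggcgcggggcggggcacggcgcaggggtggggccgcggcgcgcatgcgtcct
SUZ12 (chr17:31936757-31937006, plus strand): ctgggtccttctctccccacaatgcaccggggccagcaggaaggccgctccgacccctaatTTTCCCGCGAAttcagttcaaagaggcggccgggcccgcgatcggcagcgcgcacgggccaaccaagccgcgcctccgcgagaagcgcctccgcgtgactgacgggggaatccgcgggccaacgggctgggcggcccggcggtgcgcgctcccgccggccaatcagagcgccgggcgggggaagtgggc
TET2 (chr4:105146626-105146875, plus strand): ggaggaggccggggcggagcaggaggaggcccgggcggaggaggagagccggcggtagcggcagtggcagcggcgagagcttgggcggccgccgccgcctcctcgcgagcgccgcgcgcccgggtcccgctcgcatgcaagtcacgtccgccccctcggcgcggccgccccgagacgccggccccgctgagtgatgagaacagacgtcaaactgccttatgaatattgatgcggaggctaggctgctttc
The STAT6 motif was found in 1 of the 10 promoters, SUZ12, and in 5.38% of 35116 promoters of this length. The E2F motif was found in 2, SUZ12 and EZH1, against 2.79% of all, and the cyclic AMP response element in 0 of 10, against 1.65%. In SUZ12 the STAT6 and E2F matches overlap, starting 188 and 189 bases before the transcript start, so that they are 1 stretch of sequence and not separate sites. In EZH1 the match starts 115 bases before it. The TET2 and EZH2 promoters hold none of these motifs in this window. GC content was 79.6% for EZH2, 67.6% for EZH1 and 72.8% for both SUZ12 and TET2, against a median of 58% over all promoters, and the number of CpG dinucleotides was 39, 26, 34 and 34 against a median of 11. KMT2C had the most GC-rich promoter of the 10 genes, with 92% GC and 48 CpG. The windows of EZH2, EED, KMT2C, ARID1A, SMARCA4 and TET2 lie inside the gene as GENCODE bounds it, those of EED and SMARCA4 far from its start. The files name no transcript start, so the start used in these cells is not known.

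All 10 genes were expressed in each library, at levels that differed widely. Levels per kb of the canonical transcript (CPM divided by its length in GENCODE release 44) can be compared between genes, and in AAVS baseline they were 84.3 ± 12.9 for SMARCA4, 59.3 ± 26.9 for EZH2, 52.4 ± 15 for KMT2C and 43.9 ± 6.84 for ARID1A (CPM per kb, SD, n = 4). SUZ12 (27.8 ± 5.36) and KMT2D (22.2 ± 3.01) followed, then KDM6A (12.5 ± 5.41), EZH1 (11.7 ± 5.28) and EED (9.44 ± 5.35), and TET2 was lowest at 2.92 ± 1.69 CPM per kb. Neighbours in this order from SMARCA4 through EZH2 and KMT2C to ARID1A, and likewise from KDM6A through EZH1 to EED, differed by less than the larger SD of each pair. Per kb, EZH2 thus exceeded its paralog EZH1 in AAVS baseline, and the same held for the means of the other 3 groups (54.9, 71.8 and 68.6 against 13.9, 9 and 7.94 CPM per kb in AAVS IL4, CREBBP baseline and CREBBP IL4).

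**Figure D1:**
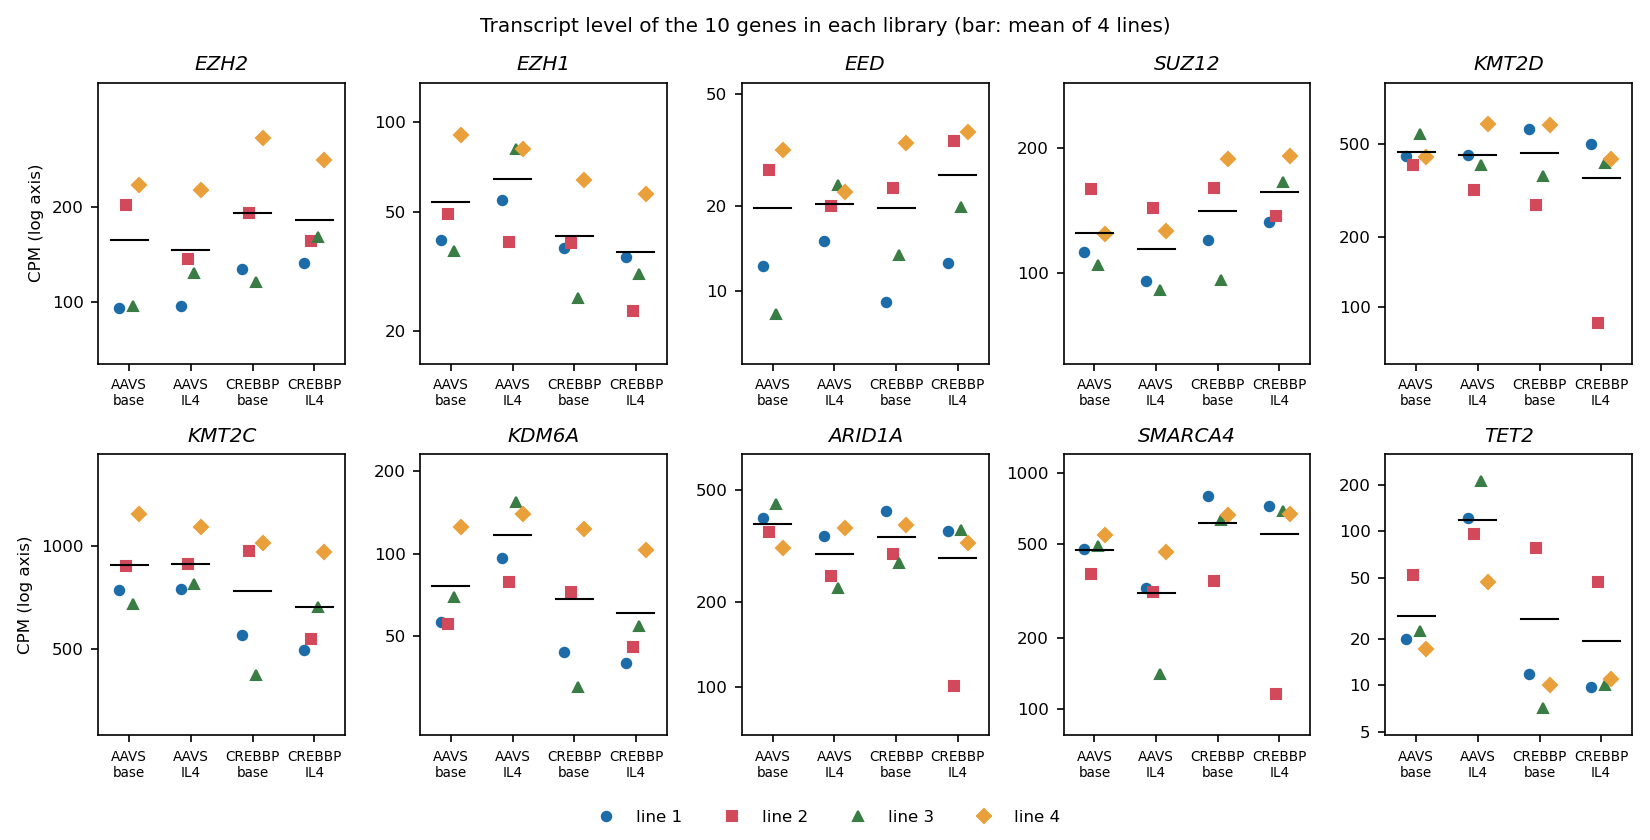
Transcript level (CPM, log axis) of each of the 10 genes in the 16 libraries by group, with 1 symbol per line and a bar at the mean of 4 lines. TET2 was higher in AAVS IL4 (46.7 to 211 CPM) than at AAVS baseline in each line, and KMT2D, ARID1A and SMARCA4 were low in CREBBP IL4 of line 2 (85.5, 101 and 116 CPM).

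The first comparison asked which of these genes respond to IL4 in control cells. In the AAVS pools, 0 of 10 passed an adjusted p of 0.05 in edgeR, where 2.4% of 20310 genes tested were called, and 2 of 10, TET2 and KDM6A, had an unadjusted p under 0.05, where 16% of all genes did. DESeq2 and limma-voom each called 1, TET2. TET2 was measured at 20.1, 52.1, 22.4 and 17.3 CPM in AAVS baseline of lines 1 to 4, and at 121, 95.4, 211 and 46.7 CPM with IL4. It was higher with IL4 in each line, although the groups overlap across lines because line 2 was high at baseline. The log2 fold change was 1.97 (standard error, SE, of 0.37, adjusted p = 0.0524, edgeR), just outside the threshold. Over 13 alternative settings it stayed positive (1.56 to 2.31) with adjusted p from 2.69e-05 to 0.267, and 5 of them called it, among them the fit without line 2 (2.31, adjusted p = 0.0165). The AAVS IL4 libraries ranked in the same order for TET2 as for IGHM (951, 711, 1711 and 138 CPM in lines 1 to 4), with line 3 highest and line 4 lowest in both. Whether the transcripts that set these libraries apart account for the TET2 values was not tested.

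KDM6A stood at 56.3, 55.0, 69.3 and 125 CPM at AAVS baseline and at 96.2, 78.4, 154 and 139 CPM with IL4. It was higher in 4 of 4 lines, with overlapping groups, and its log2 change of 0.59 did not pass (SE 0.19, adjusted p = 0.210, edgeR). SMARCA4 went the other way, from 475, 372, 489 and 544 CPM to 327, 314, 140 and 464 CPM. It was lower in 4 of 4 lines, by the most in line 3, and its change was -0.75 (SE 0.35, adjusted p = 0.346, edgeR). Without line 3 the SMARCA4 value was -0.41 (adjusted p = 0.544, edgeR). Of all genes tested, 15.6% were higher and 14.5% lower in 4 of 4 lines, so 2 and 1 of 10 are near the background. The PRC2 core showed no common direction, and the values of the KMT2 pair were both negative but smaller than their standard errors. EZH2 (-0.13), SUZ12 (-0.20), EED (0.15), EZH1 (0.22), KMT2D (-0.14), KMT2C (-0.03) and ARID1A (-0.43) had standard errors from 0.17 to 0.33 on the log2 scale, and adjusted p-values from 0.447 to 0.937 (edgeR). The signs of EZH1 and EED changed without line 3, to -0.07 and -0.28.

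**Figure D2:**
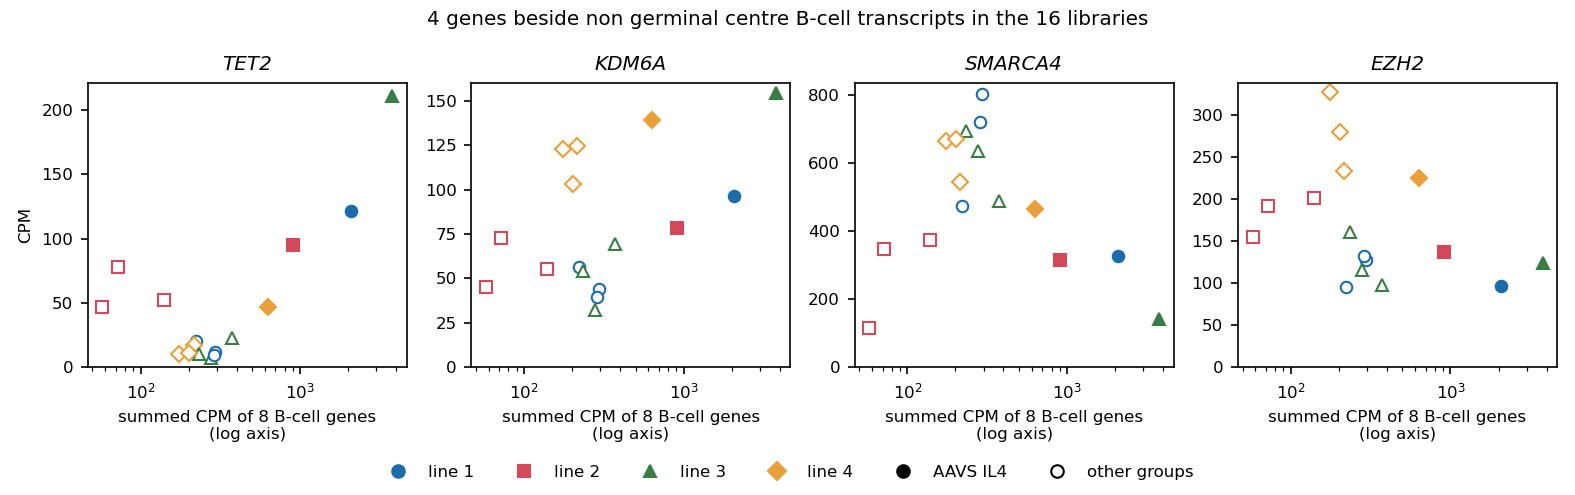
CPM of TET2, KDM6A, SMARCA4 and EZH2 in each library against the summed CPM of 8 genes typical of B cells outside the germinal centre (log axis). Filled symbols are the 4 AAVS IL4 libraries, which lie at 631 to 3772 CPM on that axis with no overlap with the other 12, and among them line 3 has the highest TET2 and the lowest SMARCA4.

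In the CREBBP pools, the same IL4 culture gave 0 of 10 genes past the threshold, as did 0% of 18282 genes tested. Here EED and KMT2D, 2 of 10, had an unadjusted p under 0.05 (2.75% of all genes; DESeq2 called 1 of 18282 genes and limma-voom 0). TET2 was at 11.8, 78.3, 7.10 and 10.1 CPM at baseline and at 9.79, 46.9, 10.0 and 11 CPM with IL4. These values overlap fully, with a log2 change of -0.05 (SE 0.16, adjusted p = 0.970, edgeR). EED was at 9.18, 23.2, 13.4 and 33.4 CPM at baseline and at 12.5, 34.0, 19.9 and 36.5 CPM, higher in 4 of 4 lines (8.18% of all genes were, also SUZ12), but its log2 change of 0.47 did not pass (SE 0.19, adjusted p = 0.924, edgeR). KMT2D was at 577, 273, 365 and 601 CPM and then at 500, 85.5, 412 and 430 CPM. After scaling it was lower in 4 of 4 lines (6.25% of all genes were), with a log2 change of -0.50 (SE 0.22, adjusted p = 0.924, edgeR).

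The KMT2D value leaned on line 2. In CREBBP IL4 of that line, KMT2D, ARID1A (101 CPM, against 295 at baseline) and SMARCA4 (116 CPM, against 349) were all low, and this is the library with the highest share of RN7SK, RN7SL1 and RN7SL2. Transcripts in it differed by length. Over 8566 protein-coding genes in quartiles of canonical transcript length, the median log2 difference in CPM from baseline went from -0.06 for the shortest (up to 2.13 kb) to -0.72 for the longest (over 5.39 kb). In line 3 the medians ran the opposite way, from -0.07 to 0.51, and in lines 1 and 4 the longest and shortest quartiles differed by -0.10 and 0.03. EED, with 2.09 kb, belongs to the shortest quartile. EZH2 lies in the next, EZH1 and SUZ12 in the one after, and KMT2D (20.6 kb), KMT2C, TET2, ARID1A, KDM6A and SMARCA4 in the longest. Measured from the median of its quartile, KMT2D in line 2 remained lower by -0.94, SMARCA4 by -0.86 and ARID1A by -0.82, while KMT2C (-0.13), TET2 (-0.01) and KDM6A (0.05), in the same quartile, lay near the median. EED lay above its quartile in each line (0.40, 0.60, 0.63 and 0.10) and KMT2D below (-0.14, -0.94, -0.33 and -0.54). Without line 2 the log2 fold change of KMT2D was -0.27 (adjusted p = 0.963, edgeR).

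**Figure D3:**
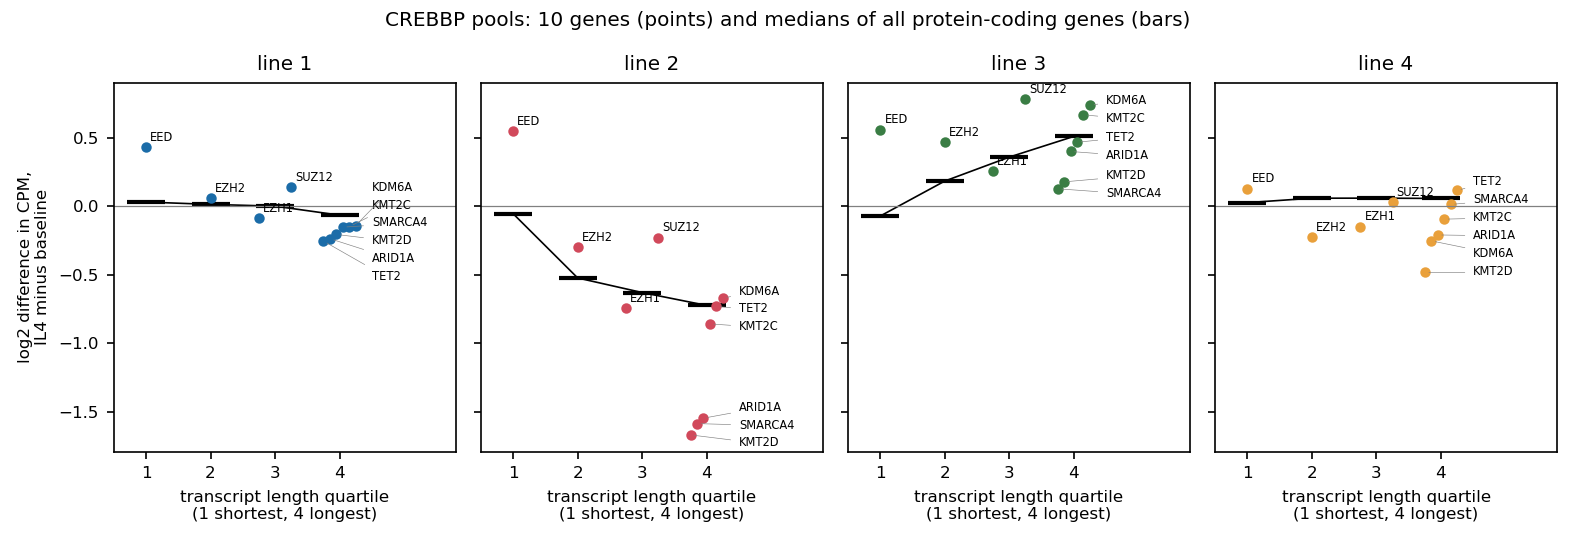
Log2 difference in CPM between IL4 and baseline in the CREBBP pools, by line, for the 10 genes (points) placed by the quartile of their transcript length, with bars at the median of all protein-coding genes of the quartile. In line 2 the medians fell from -0.06 to -0.72 with length and KMT2D, ARID1A and SMARCA4 lay further down, whereas in line 3 the medians rose from -0.07 to 0.51.

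The next comparison asked how loss of CREBBP bears on these genes without cytokine. At baseline, 0 of 10 passed the threshold and 0 of 10 had an unadjusted p under 0.05, against 0% and 12.8% of 18936 genes (DESeq2 called 511 genes and limma-voom 39, and 0 of the 10 in both). EZH2 was at 96.1, 202, 97.3 and 234 CPM in AAVS and at 127, 192, 116 and 328 CPM in CREBBP pools, a log2 change of 0.37 (SE 0.19, adjusted p = 0.445, edgeR). Its level was higher in lines 1, 3 and 4, and in line 2 the values nearly coincide (0.03 after scaling). EZH1 was at 40.2, 49.0, 37.1 and 90.0 CPM against 37.8, 39.4, 25.9 and 63.7 CPM, lower in each line, with a log2 change of -0.26 (SE 0.18, adjusted p = 0.572, edgeR). SMARCA4 reached 802, 349, 634 and 665 CPM in CREBBP pools, with a log2 change of 0.43 (SE 0.20, adjusted p = 0.398, edgeR). Line 2 again gave no difference (0.01 after scaling). After scaling, EZH2, SUZ12 and SMARCA4 were higher and EZH1 lower in 4 of 4 lines, where 9.67% of all genes were higher and 10.9% lower. TET2 gave -0.56 (SE 0.31, adjusted p = 0.475, edgeR) and was higher in the CREBBP pool of line 2 but lower in the other three. For EED, KMT2D, KMT2C, KDM6A and ARID1A the log2 fold changes lay between -0.21 and 0.13, and the signs of all of these but KMT2C changed in at least 1 alternative.

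With IL4, edgeR called 0 of 10 between the CREBBP and AAVS pools, against 4.39% of 19581 genes, and 4 of 10 (EZH2, SUZ12, KDM6A and TET2) had an unadjusted p under 0.05, against 25.6%. DESeq2 called 3 of 10 and limma-voom 1. TET2, at 121, 95.4, 211 and 46.7 CPM in AAVS IL4, was at 9.79, 46.9, 10.0 and 11 CPM in CREBBP IL4, lower in each line by a log2 change of -2.55 (SE 0.64, adjusted p = 0.0690, edgeR). The groups meet only where line 4 of the first and line 2 of the second are nearly equal. Over the alternatives the value ran from -3.18 to -1.95 with adjusted p from 1.22e-05 to 0.246. SUZ12 was at 95.8, 143, 90.9 and 126 CPM against 132, 137, 165 and 191 CPM, with a log2 change of 0.74 (SE 0.22, adjusted p = 0.0937, edgeR). EZH2 was at 97.0, 137, 124 and 225 CPM against 132, 155, 161 and 280 CPM, with 0.61 (SE 0.22, adjusted p = 0.136, edgeR). SUZ12 and EZH2 were higher in 4 of 4 lines after scaling (16.5% of all genes were) and both passed in DESeq2 (adjusted p = 0.00549 and 0.0401). EED, of the same complex, was higher in 3 lines and lower in 1, with 0.51 (SE 0.33, adjusted p = 0.353, edgeR). KDM6A, at 96.2, 78.4, 154 and 139 CPM against 39.6, 45.4, 54.4 and 103 CPM, was lower in 4 of 4 lines, with -0.72 (SE 0.27, adjusted p = 0.154, edgeR). EZH1, at 54.8, 39.7, 81.0 and 81.3 CPM against 35.5, 23.4, 30.9 and 57.4 CPM, was also lower in 4 of 4 lines, with -0.54 (SE 0.25, adjusted p = 0.223, edgeR). Of all genes, 21.3% were lower in 4 of 4 lines. SMARCA4 had a log2 change of 0.92 (SE 0.52, adjusted p = 0.306, edgeR), with 1.37, -0.82, 2.59 and 0.65 after scaling in lines 1 to 4. KMT2D (-0.27), KMT2C (-0.17) and ARID1A (0.09) had adjusted p-values from 0.625 to 0.866 (edgeR).

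Proliferation genes moved beside these values. All 13 of them had positive log2 fold changes for CREBBP against AAVS pools, with a median of 0.70 at baseline (-0.03 over all genes, 0 called) and 1.47 with IL4 (-0.05 over all genes), where 3 passed: PCNA (the replication clamp, 1.68), RRM2 (a subunit of ribonucleotide reductase, 1.64) and CCNB1 (mitotic cyclin B1, 1.41), with adjusted p of 0.0431, 0.0448 and 0.0355 (edgeR). The summed level of the list was 822 to 3312 CPM in AAVS IL4 and 2062 to 4707 CPM in the other 12 libraries. In AAVS IL4 of line 3, which had the lowest SMARCA4, the proliferation marker MKI67 was at 218 CPM, against 641 to 1177 CPM in the other lines. The part of proliferation in the EZH2, EZH1 and SUZ12 values was not tested, and in bulk RNA fewer dividing cells and less RNA per cell cannot be told apart.

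**Figure D4:**
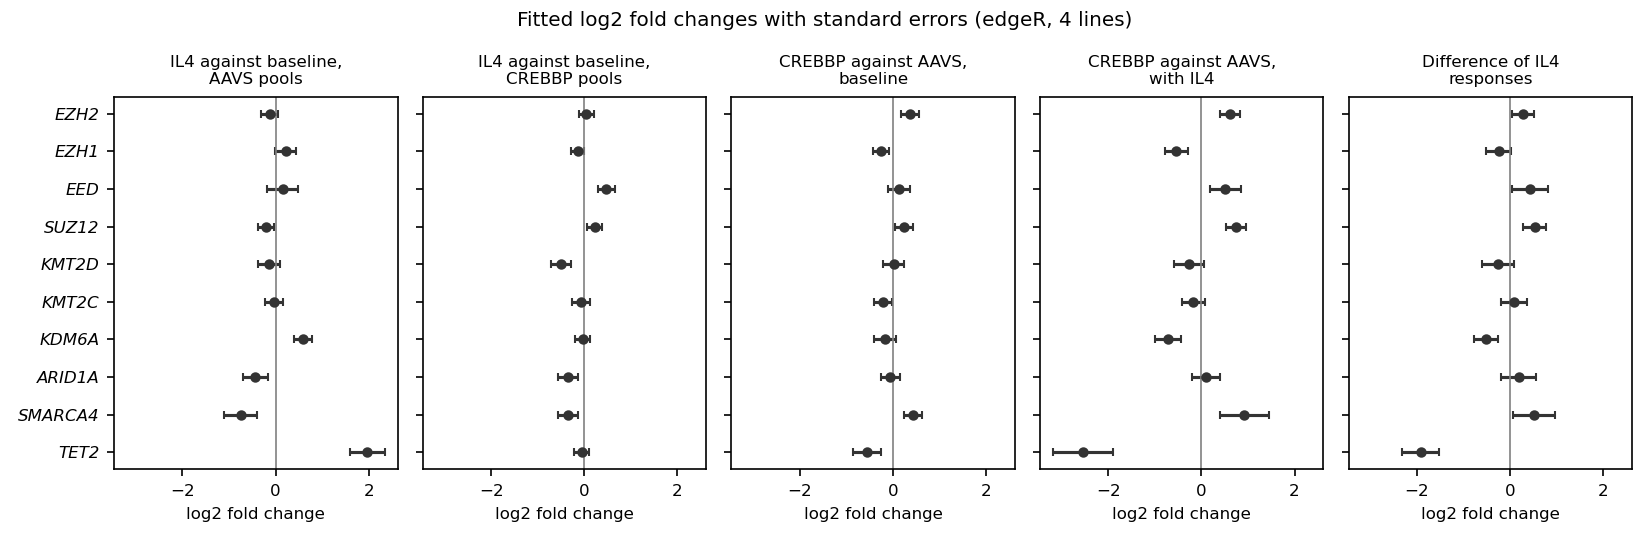
Fitted log2 fold change and standard error (edgeR, 4 lines) of the 10 genes in the 4 comparisons between conditions and for the difference of the IL4 responses. The TET2 values of 1.97, -2.55 and -1.92 stand furthest from 0, all in comparisons that include AAVS IL4, and no value passed the threshold.

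The IL4 response of the CREBBP pools was also compared directly with that of the AAVS pools in 1 model of all 16 libraries. The difference passed for 0 of 10 genes, against 0.638% of 21932 genes (140), and 1 of 10 had an unadjusted p under 0.05, against 13.3%. It was TET2, where the responses differed by -1.92 (SE 0.40, adjusted p = 0.0632, edgeR), negative in each of 12 alternatives (-2.3 to -1.66) and called in 4 of them, DESeq2 and limma-voom included. SUZ12 followed with 0.53 (SE 0.25, adjusted p = 0.379) and KDM6A with -0.52 (SE 0.26, adjusted p = 0.417). The remaining 7 genes lay between -0.25 and 0.51 with standard errors from 0.24 to 0.45, so that a difference of that size in either direction was not detectable for them with 4 lines.

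Ratios of paired paralogs within a library do not depend on how libraries are scaled. The EZH2 to EZH1 ratio of counts was 2.39, 4.11, 2.62 and 2.60 in AAVS baseline of lines 1 to 4, and 3.37, 4.86, 4.49 and 5.15 in CREBBP baseline. It was higher in the CREBBP pool of 4 of 4 lines, by 0.62 ± 0.32 on the log2 scale (SD, n = 4, exact sign-flip test p = 0.12, adjusted p = 0.400 over 16 comparisons). With IL4 it was 1.77, 3.45, 1.53 and 2.77 in AAVS against 3.74, 6.65, 5.19 and 4.88 in CREBBP pools, with no overlap between the groups. The difference was 1.15 ± 0.42 (SD, n = 4, exact sign-flip test p = 0.12, adjusted p = 0.400), and 0.12 is the smallest p that 4 lines allow. When each gene was measured from the median of its length quartile, the differences were 0.52 ± 0.31 and 1.04 ± 0.43, again higher in 4 of 4 lines. Length moved with this comparison, since EZH1 is the longer transcript. The median of its length quartile was below that of the quartile of EZH2 in 4 of 4 lines. At baseline these medians were -0.0573, -0.116, -0.279 and 0.0553 against 0.107, -0.0839, -0.135 and 0.130 in lines 1 to 4. With IL4 they were -0.00138, -0.683, 0.250 and 0.108 against 0.162, -0.567, 0.328 and 0.166. With IL4 against baseline the ratio differed by -0.34 ± 0.36 in AAVS and by 0.18 ± 0.22 in CREBBP pools (exact sign-flip test p = 0.250 in both).

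SMARCA4 was set against its paralog SMARCA2 (BRM), the alternative ATPase of the complex. The ratio of counts was 10.1, 3.15, 10.4 and 8.69 in AAVS baseline, and 3.95, 2.41, 0.931 and 6.69 with IL4. It was lower with IL4 in 4 of 4 lines, by -1.40 ± 1.46 on the log2 scale (SD, n = 4), and also in the CREBBP pools, by -0.39 ± 0.38 (exact sign-flip test p = 0.12 and adjusted p = 0.400 in both). Line 3 carried most of the AAVS value. In each group line 2 had a lower ratio than lines 1 and 4. With IL4 the KMT2D to KMT2C ratio of counts was lower in 4 of 4 CREBBP pools, by -0.44 ± 0.31 (SD, n = 4, exact sign-flip test p = 0.12, adjusted p = 0.400), and showed no common direction in the AAVS pools (-0.10 ± 0.54). For KDM6A against KDM6B, the other demethylase of the PRC2 mark, the differences were 0.05 ± 0.57 and 0.44 ± 0.59 with IL4 in AAVS and CREBBP pools, -0.04 ± 0.89 for CREBBP against AAVS at baseline and 0.35 ± 0.68 with IL4 (SD, n = 4), with 3 lines on one side and 1 on the other each time.

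**Figure D5:**
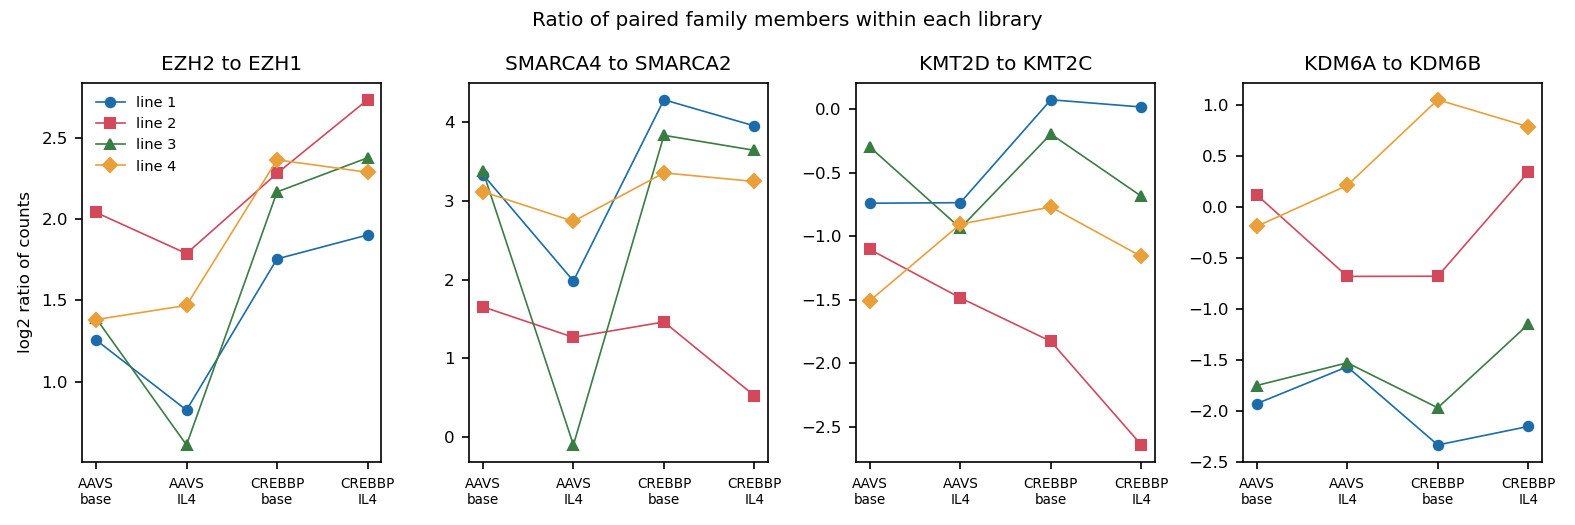
Log2 ratio of counts of paralog pairs in each library by group, with lines joining the libraries of 1 cell line. EZH2 to EZH1 was higher in the CREBBP than in the AAVS pools in 4 of 4 lines at baseline and with IL4. SMARCA4 to SMARCA2 was at 0.931 (log2 -0.10) in AAVS IL4 of line 3, a library that correlated weakly with the others of its line.

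Most of these genes differed in level between the cell lines. Over the 12 libraries outside AAVS IL4, with the condition as a covariate, 7 of 10 genes (EZH2, EZH1, EED, KMT2D, KDM6A, SMARCA4 and TET2) differed between the 4 lines, where 42.4% of 21181 genes did. The 3 libraries of a line are 1 line under 3 conditions, so the test compares these cultures and not kinds of lymphoma. SUZ12 (adjusted p = 0.650), KMT2C (0.149) and ARID1A (0.0577, all edgeR) did not pass. The mean of the highest line was 4.63 times that of the lowest for TET2, 2.98 for EED, 2.51 for KDM6A, 2.39 for SMARCA4, 2.37 for EZH2, 2.25 for EZH1 and 1.38 for SUZ12. Line 4 was highest for all 4 PRC2 genes, KMT2C and KDM6A. EZH2 reached 281 ± 46.7 CPM there against 119 ± 19.7 in line 1, 183 ± 24.3 in line 2 and 125 ± 32.5 in line 3, and KDM6A 117 ± 12 CPM against 46.6 ± 8.71, 57.7 ± 13.8 and 52.1 ± 18.5 (SD over 3 libraries). The count of 7 fell to 5 without line 2, to 4 without line 4, to 3 without CREBBP IL4 and to 1 without CREBBP baseline.

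Line 2 was set against lines 1, 3 and 4 because earlier results of these data had shown it to differ most. The p-values are therefore no independent support, and n is 1 line. It differed in 5 of 10 genes, where 32.6% of 21181 genes were called (15.5% higher and 17% lower). TET2 was higher, at 52.1, 78.3 and 46.9 CPM in AAVS baseline, CREBBP baseline and CREBBP IL4 against 7.10 to 22.4 CPM in the 9 libraries of the other lines, with no overlap and a log2 change of 2.3 (SE 0.25, adjusted p = 1.28e-05, edgeR). It passed in 13 of 13 alternatives. EED was also higher (0.70, adjusted p = 0.0246). SMARCA4, at 372, 349 and 116 CPM in line 2 against 475 to 802 CPM elsewhere, was lower by -1.27 (SE 0.26, adjusted p = 0.00220, edgeR), again with no overlap. Without the CREBBP IL4 libraries it was -0.92 (adjusted p = 0.0183), and when the AAVS IL4 libraries were added it was -0.88 (adjusted p = 0.0553). KMT2D (-1.11, adjusted p = 0.00727) and ARID1A (-0.68, adjusted p = 0.0356) were lower, but neither they nor EED passed without CREBBP IL4 (-0.77, -0.41 and 0.46). SMARCA2, the alternative ATPase, was higher in line 2 by 1.03 (adjusted p = 0.000119, edgeR).

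The other genes of these pathways gave few calls between conditions. PHF1, which links PRC2 to chromatin, was the 1 gene called of 8 tested PRC2 partners for IL4 in the AAVS pools (2.4% of all genes were called), rising from 11, 6.55, 20.9 and 18.7 CPM to 52.5, 32.1, 115 and 35.9 CPM (log2 fold change 1.93, standard error 0.28, adjusted p = 0.0257, edgeR). It was at 17, 7.25, 11.3 and 11 CPM in CREBBP IL4, lower than in AAVS IL4 by -1.91 (adjusted p = 0.0334), and its response differed between the pools by -1.85 (adjusted p = 0.0354, where 0.638% of all genes passed). JARID2, a PRC2 cofactor (-1.60, adjusted p = 0.0346), and CBX7, a reader of the PRC2 mark in PRC1 (-2.58, adjusted p = 0.0379), were also lower in CREBBP than AAVS pools with IL4, where 2 of 8 PRC2 partners, 1 of 21 PRC1 genes, 0 of 15 COMPASS and UTX partners, 0 of 24 SWI/SNF partners, 0 of 9 TET and DNA methylation genes and 0 of 13 other histone methyltransferases passed, against 4.39% of all genes, so that 1 of 21 is near the background. Among the same lists IL4 in the AAVS pools gave PHF1 alone, the difference in response PHF1 alone, and the other 2 comparisons gave 0 calls. All of these calls involve AAVS IL4. The TET and DNA methylation list had a median log2 change of 0.70 for CREBBP against AAVS pools with IL4 and -0.41 for IL4 in the AAVS pools (-0.05 and 0.01 over all genes), with 6 and 2 of 9 genes at an unadjusted p under 0.05, against 25.6% and 16% of all genes.

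For line 2 against the others, 3 of 9 PRC2 partners, 11 of 21 PRC1 genes, 5 of 15 COMPASS and UTX partners and 10 of 24 SWI/SNF partners passed. So did 3 of 9 TET and DNA methylation genes and 4 of 13 other histone methyltransferases. Of all genes 32.6% passed, so that the counts other than that of PRC1 are near the background. The PRC1 subunits PCGF2 (-4.64, adjusted p = 9.34e-07) and PHC1 (-2.94, adjusted p = 1.41e-07) and the de novo DNA methyltransferase DNMT3B (-4.13, adjusted p = 5.16e-06) were lower in line 2, while the SWI/SNF subunit DPF3 was higher (4.37, adjusted p = 2.00e-08, edgeR).

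Across the 12 libraries outside AAVS IL4, the levels of some of the 10 genes moved together. Pearson's r of log2 CPM was 0.94 for KMT2D with ARID1A, 0.90 for KMT2D with SMARCA4, 0.89 for KMT2C with KDM6A and 0.86 for EZH2 with EED, and it was -0.88 for SMARCA4 with TET2 and -0.85 for EED with ARID1A. These points share lines, library scaling and the length pattern of line 2, so the values are descriptions. EZH2 and EZH1 had r = 0.40. Among 6506 genes of at least 10 CPM in these libraries, the most similar profiles were FAM72B for EZH2 (0.98, a gene with near-identical copies whose reads may be split), ZBTB5 for EZH1 (0.93), TIA1 for EED (0.97), USP1 for SUZ12 (0.95), DNM2 for KMT2D (0.97), SPG11 for KMT2C (0.96), NEAT1 for KDM6A (0.96), TRAK1 for ARID1A (0.97), MORC2 for SMARCA4 (0.98) and PDLIM1 for TET2 (0.97). When AAVS IL4 was included, r was 0.73 for TET2 with PDLIM1, 0.83 for EZH2 with FAM72B and for SMARCA4 with MORC2, and 0.84 for KMT2C with SPG11, and for the other 6 pairs it lay between 0.92 and 0.98.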

How the data were processed

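Total RNA depleted of ribosomal RNA was sequenced from 16 libraries, 4 groups of 4 lines. Estimated counts of each gene were deposited by the authors as whole numbers, and the submitters' processing notes name bcl2fastq, cutadapt 2.3, FastQC 0.11.8, MultiQC 1.7, STAR 2.7.8a and RSEM 1.3.3 on GRCh38. The annotation release is not given in the sources used here, and 62639 of 62714 gene IDs matched GENCODE release 44. Of the rows, 4 are reporter genes with 0 counts. CPM was computed from the library totals without further scaling. Differences were tested over all genes with edgeR 4.0.16 (R 4.3.3), quasi-likelihood, TMM factors and the default filter on low counts. The cell line, or the line and pool for the difference of responses, was a block in comparisons of conditions. In comparisons of lines the condition was the covariate. Benjamini-Hochberg adjusted p-values under 0.05 were called. The standard error is the log2 fold change divided by the square root of F. In comparisons of conditions, p-values rest on 4 lines with 1 library each per group. The block takes out differences in level between lines, so they measure how the change within a line varies between lines. In comparisons of lines, they rest on 3 libraries of each line under different conditions, so they measure the spread within lines. Ratios of counts (pseudocount 0.5) were compared within lines by an exact two-sided sign-flip permutation test, over 16 comparisons.

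The block follows from the design, since libraries of 1 number come from the same cell line. Deviations from the group means of libraries of the same line correlated with a median r of 0.66 (-0.15 to 0.89, 24 pairs, 9082 genes). The lowest values were those of AAVS IL4 of line 3 with AAVS baseline (0.14), CREBBP baseline (-0.04) and CREBBP IL4 (-0.15) of that line. The next lowest was 0.47, so the pairing was weak for this library. No libraries were duplicates of each other. Alternatives were DESeq2 1.42.0, limma 3.58.1 (voom), other scaling factors and filters, no block, 1 fit of all libraries and each line left out. The fits were tested on simulated data. Python 3.11.15, numpy 2.4.6, pandas 2.3.3 and scipy 1.17.1 gave the remaining values. Genes outside the 10 were named by rule: up to 4 genes per list and comparison with the largest change among those called, the partners in the ratios, and the most similar gene to each. MKI67 was named after its values had been seen. The 10 genes, the lists and line 2 were chosen with earlier results of these data known. Some values are not reported here.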

Additional observations from a re-analysis of the deposited data

Results flagged for a closer look

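Of 40 groups of 4 libraries (10 genes in 4 conditions), 5 held 1 library far from the other 3. Chance gives about 1 in 20 for independent groups. These groups share the same 4 lines and libraries, so the count cannot be set against that rate. All 5 are libraries of line 2. TET2 was far above the other lines in AAVS baseline (52.1 CPM, next highest 22.4), in CREBBP baseline (78.3 CPM, next highest 11.8) and in CREBBP IL4 (46.9 CPM, next highest 11). ARID1A (101 CPM, next lowest 324) and SMARCA4 (116 CPM, next lowest 671) were far below the other lines in CREBBP IL4, the library with the highest share of RN7SK, RN7SL1 and RN7SL2 (18.1% of counts) and with a lower median for long transcripts. The part of that library's composition in the 2 low values was not tested.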

How the results depend on the processing

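Of 770 fold changes of the 10 genes under alternative settings, 705 kept their direction and side of the threshold, 20 newly passed, 12 no longer passed and 33 changed sign. For IL4 in the AAVS pools, the count of genes called was 1 without a filter, with DESeq2, with limma-voom and with all 16 libraries in 1 fit (0 in the reported fit), and 0 to 1 when a line was left out. For CREBBP against AAVS pools with IL4 it was 1 without a filter, with at least 10 counts in every library and with limma-voom, 3 with DESeq2 and with all 16 libraries, and 0 to 1 without a line. For the difference of the responses it was 1 without a filter, with DESeq2 and with limma-voom, and 0 to 1 without a line. Without the replicate block 0 genes were called in each of the 5 comparisons of conditions, and over all genes 467, 0, 0, 540 and 2 were called, against 488, 0, 0, 859 and 140 with it. With a line left out, the count over all genes was highest without line 2, at 1035 for IL4 in the AAVS pools (64 to 350 without another line), 515 for CREBBP against AAVS pools at baseline (0 to 1) and 2547 with IL4 (25 to 315). The EZH2 to EZH1 difference with IL4 (1.15) had an exact permutation p of 0.0286 without the replicate block. That test ignores the pairing by line, and 0.0286 is the smallest p it allows. Between the lines the count of 7 became 1 without CREBBP baseline and 3 without CREBBP IL4, and 4 to 7 without a line. Line 2 against the others gave 3 with all 16 libraries, 2 without CREBBP baseline, 2 without CREBBP IL4, and 3 to 6 without a line. Fits without a group or a line hold fewer libraries by construction, and otherwise the cause was not tested.

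Signs changed for small values. Leaving out a line gave ranges, for IL4 in AAVS pools, of -0.0705 to 0.35 (EZH1) and -0.28 to 0.37 (EED), and in CREBBP pools of -0.20 to 0.0587 (KDM6A), -0.14 to 0.028 (TET2) and -0.21 to 0.0424 (KMT2C). For CREBBP against AAVS pools at baseline they were -0.15 to 0.21 (KMT2D), -0.18 to 0.0845 (ARID1A), -0.12 to 0.31 (EED) and -0.36 to 0.0603 (KDM6A), and with IL4 -0.46 to 0.10 (KMT2D) and -0.18 to 0.39 (ARID1A). For the difference of the responses they were -0.029 to 0.85 (EED), -0.0752 to 0.13 (KMT2C) and -0.24 to 0.32 (ARID1A), and for line 2 -0.44 to 0.0018 (EZH1) and -0.39 to 0.20 (KDM6A). The log2 ratios gave -0.34 to 0.0753 and -0.39 to 0.25 for KMT2D to KMT2C (IL4 in AAVS pools, and CREBBP against AAVS with IL4), and -0.0718 to 0.33 and -0.47 to 0.21 for KDM6A to KDM6B (IL4 in AAVS pools, and CREBBP against AAVS at baseline). Upper-quartile factors, which moved the median of all genes from -0.05 to -0.27 for CREBBP against AAVS pools with IL4, gave 0.0076 (KMT2C, IL4 in AAVS pools), -0.0616 (KMT2D, baseline), -0.12 (ARID1A, with IL4) and -0.0812 (KMT2C, difference of responses). With no filter KMT2D was -0.0264 at baseline, with at least 10 counts -0.0049, and with all 16 libraries -0.0198. With at least 10 counts ARID1A was -0.0016 with IL4 and KMT2C -0.0975 in the difference of responses. For line 2, KDM6A was 0.11 without AAVS baseline and KMT2C -0.0539 without CREBBP baseline.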
